A study of Mus musculus with 4 samples.

Results

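Metallothioneins, their zinc-sensing transcription factor and zinc transporters were examined in 4 poly(A) RNA libraries of cultured mouse female germline stem cells. The 10 genes were Mt1, Mt2, Mt3, Mtf1, Slc30a1, Slc30a5, Slc39a1, Slc39a6, Slc39a10 and Slc39a14. They were picked by symbol from the 55359 genes of the deposited table, and each symbol matched 1 row. The labels describe the cells as grown from mouse ovary, all in MEM-alpha with 10% serum, epidermal growth factor, basic fibroblast growth factor, leukemia inhibitory factor and glial cell line-derived neurotrophic factor. By its title the study concerned pyroptosis under celastrol, a plant triterpenoid, and its design text names treated and untreated cells at 12 h. The labels of the libraries, numbered 01, 02, 21 and 22, differ only in that number, and none says which cells received celastrol. Each library is therefore reported on its own, without a comparison between conditions, without a test and without replicate error. In such bulk RNA, fewer cells of a type and less RNA per cell cannot be told apart.

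The libraries held 12339636 (library 01), 13039541 (library 02), 12388380 (library 21) and 12850347 (library 22) counts. A gene is called detected at 1 FPKM (counts scaled to exonic length and to the total count of the library) or more, which 20.1% of all genes reached in every library. The 11874 genes whose mean over the libraries reached 1 FPKM are called expressed genes. Defining germ cell markers were near 0. Of 16 germ cell markers, 13 stayed below 1 FPKM throughout and 8 had no count, among them Dppa3, Nanos2 and Nanos3, while Ddx4 had 0, 2, 0 and 0 counts. Of 10 fibroblast or feeder markers, 8 were detected in every library, and of 8 granulosa or theca markers none was. In the mast cell list 3 of 10 were detected in every library, Kit, Cpa3 and Gata2, whereas Mcpt4, Tpsb2 and Fcer1a had no count. The label of these libraries was thus not matched by most of the markers of a germ cell.

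Metallothioneins are small, cysteine-rich proteins that bind zinc, copper and cadmium and buffer the free zinc of the cell. When free zinc rises, the zinc finger factor MTF1 binds short metal response elements in promoters and switches on metallothionein genes and the exporter gene Slc30a1. Zinc enters the cytosol through ZIP proteins, encoded by Slc39a genes, and leaves it for the outside or for organelles through ZnT proteins, encoded by Slc30a genes. In the ovary, zinc uptake is needed for oocyte meiosis, and in mouse oocytes ZIP6 and ZIP10 are known carriers of it.

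Promoter sequence is shown first for Mt1, Mt2 and Slc30a1, the classical MTF1 targets among the genes, because MTF1 binds metal response elements in promoters. RefSeq windows on build GRCm38.p6, running from 250 bases before to 50 bases after the annotated start, were found for 8 of the 10 genes, with 2 windows for Slc39a10. Slc39a6 and Slc39a14 had none. Each window is written 5′ to 3′ on the strand of the gene, and capitals mark matches to the metal response element core, searched as TGCACNC and TGCGCNC on both strands.
Mt1 (chr8:94178839-94179138, plus strand): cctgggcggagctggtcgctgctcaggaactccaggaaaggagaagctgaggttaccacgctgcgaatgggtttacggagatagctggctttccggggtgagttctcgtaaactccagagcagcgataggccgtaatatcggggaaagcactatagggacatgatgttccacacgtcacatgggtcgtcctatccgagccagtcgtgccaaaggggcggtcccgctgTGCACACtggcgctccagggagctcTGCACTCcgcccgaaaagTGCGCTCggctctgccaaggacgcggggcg
Mt2 (chr8:94172368-94172667, plus strand): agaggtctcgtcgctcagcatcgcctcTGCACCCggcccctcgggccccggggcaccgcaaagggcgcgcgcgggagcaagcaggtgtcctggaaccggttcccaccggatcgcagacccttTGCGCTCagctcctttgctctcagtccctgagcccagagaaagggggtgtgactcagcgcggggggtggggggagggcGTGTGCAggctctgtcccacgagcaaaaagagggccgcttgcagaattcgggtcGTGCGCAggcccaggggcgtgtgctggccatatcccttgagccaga
Slc30a1 (chr1:191906531-191906830, plus strand): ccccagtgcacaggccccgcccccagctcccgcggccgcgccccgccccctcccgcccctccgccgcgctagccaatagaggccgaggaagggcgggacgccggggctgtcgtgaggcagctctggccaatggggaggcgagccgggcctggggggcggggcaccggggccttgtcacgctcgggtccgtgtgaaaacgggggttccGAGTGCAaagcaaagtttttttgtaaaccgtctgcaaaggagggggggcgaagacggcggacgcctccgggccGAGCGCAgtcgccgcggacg

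The Mt2 window held 4 matches to the core, the Mt1 window 3 and the Slc30a1 window 2. Among all 32851 windows of the same length, 25.7% held at least 1 match, 7.11% at least 2, 1.97% at least 3 and 0.517% at least 4. Mt3 and Slc30a5 each had 1 match, and the windows of Mtf1, Slc39a1 and Slc39a10 had none. In Mt2 the matches began at positions -223, -128, -50 and 5, and in Mt1 at -23, 3 and 21, counted from the annotated start, whose first base is 1. Of the Mt2 matches, those at -223 and -128 were on the plus strand and those at -50 and 5 on the minus strand, while all Mt1 matches were on the plus strand. In Slc30a1 they began at -43 and 31, both on the minus strand. A second motif, the antioxidant response element core searched as TGACNNNGC on both strands, occurred once in each of the windows of Mt2, Slc30a1, Slc30a5 and Slc39a1, against 12.4% of all windows with at least 1. No match of one motif overlapped a match of the other, and no metal response core overlapped another. A match describes letters in a window and does not show a site in use, and a window without a match says nothing about the factor.

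**Figure D1:**
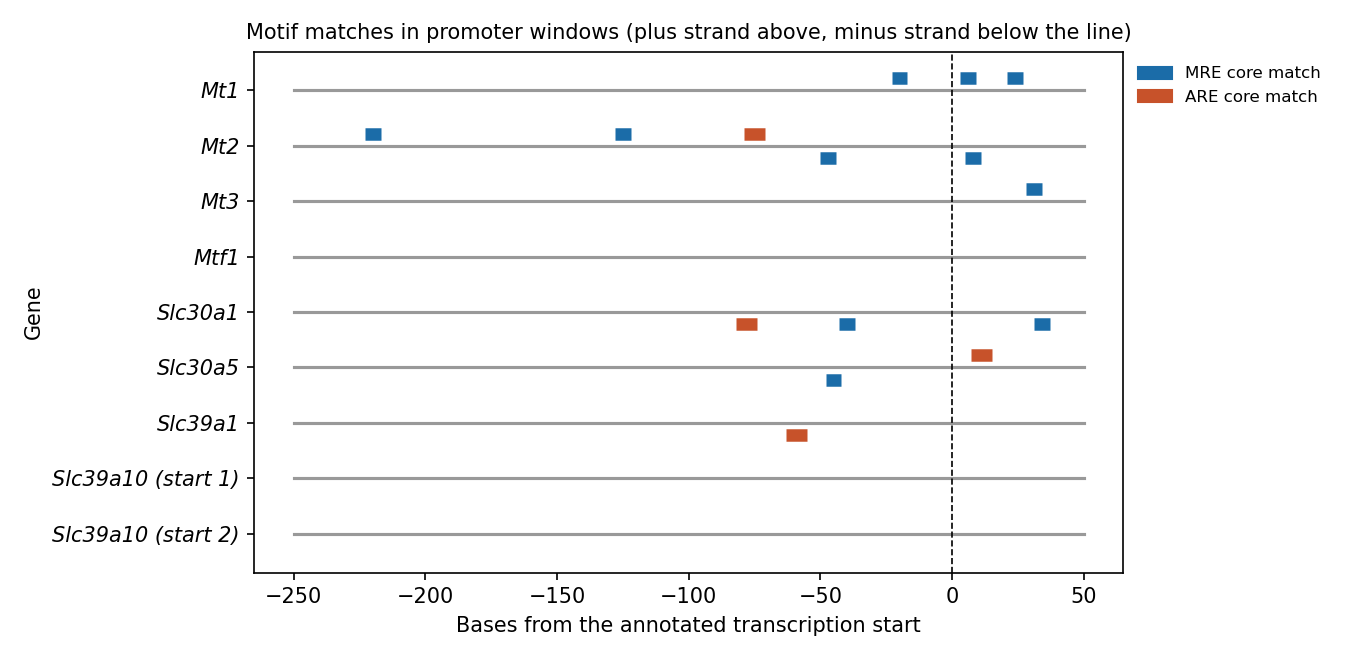
Matches to the metal response element (MRE) core in blue and the antioxidant response element (ARE) core in orange, in bases from the annotated transcription start (dashed line), for the 9 RefSeq windows of 8 genes. Mt2 carries 4 MRE core matches, Mt1 3 and Slc30a1 2.

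Of the 10 genes, 9 were detected in every library and Mt3 had no count in any. Mt2, Mt1 and Slc39a6 stood at the top with medians of 231, 131 and 118 FPKM, followed by Slc39a1 at 40.2 FPKM. Slc39a10, Slc30a5 and Slc39a14 lay close together at 12.8, 11.7 and 11.5 FPKM, with Slc30a1 at 8.77 FPKM and Mtf1 at 3.42 FPKM. Slc39a10 was above Slc39a14, and Slc39a14 above Slc30a1, in each library, whereas the place of Slc30a5 against Slc39a10 and Slc39a14 changed between libraries. On the deposited sizes, Slc39a6 was below Mt1 in libraries 01 and 02 and above it in libraries 21 and 22, an order that depends on the length taken for Mt1.

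**Figure D2:**
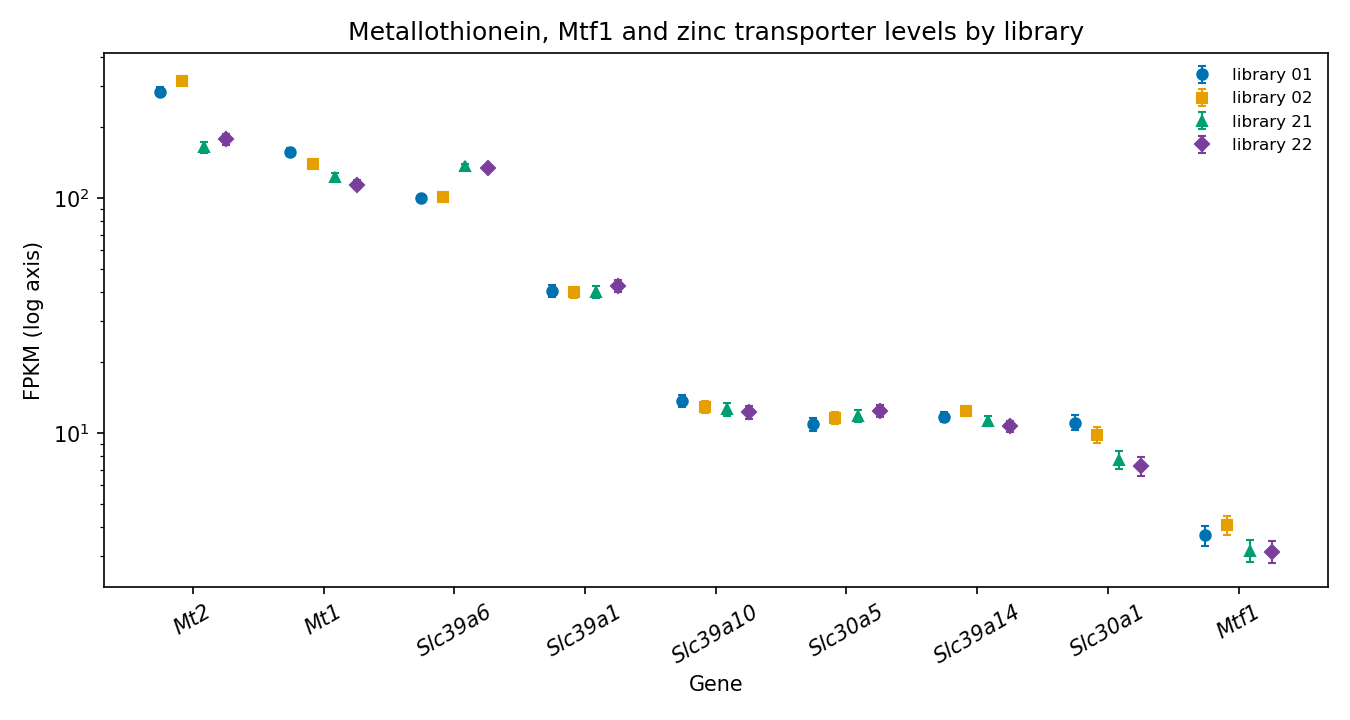
FPKM on a log axis for the 9 detected genes, 1 symbol for each library, with exact Poisson 95% intervals of the counts as bars. Mt2 is highest in libraries 01 and 02 (284 and 314 FPKM, against 164 and 178 FPKM in libraries 21 and 22), Slc39a6 runs the other way, and Slc39a1 is level.

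How far each gene varied is given as its log2 range, its log2(FPKM + 1) in the highest library minus that in the lowest. Of the 9 detected genes, 2 (Mt2 and Slc30a1) had a log2 range of 0.5 or more, against 17.3% of expressed genes, and 6.9% of the 6352 genes whose mean counts lay within the span of these 9, 396 to 6075 counts. At a range of 0.3 or more there were 4, where expressed genes gave 44.2%, and at 1 or more there was none, where expressed genes gave 3.61%. The median range of the 9 genes was 0.29, beside 0.27 for expressed genes and 0.23 for those with like counts. Without library 02 it was 0.18, with no background computed for that case. A range can only stay or shrink when a library is left out. Without library 01, and likewise without library 22, the range of Slc30a1 was under 0.5 and 1 gene, Mt2, was past it. Exact Poisson 95% intervals of the lowest and the highest library did not overlap for 7 of the 9, against 56.7% of expressed genes and 68.6% of those with like counts. With 99% intervals it was 6 of the 9, against 39.0% of expressed genes. The share among genes with like counts, the higher of the 2 shares at 95%, was not computed at 99%. These intervals cover counting error only. Copies made by PCR are not independent molecules, so the intervals may be too narrow even for that.

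**Figure D3:**
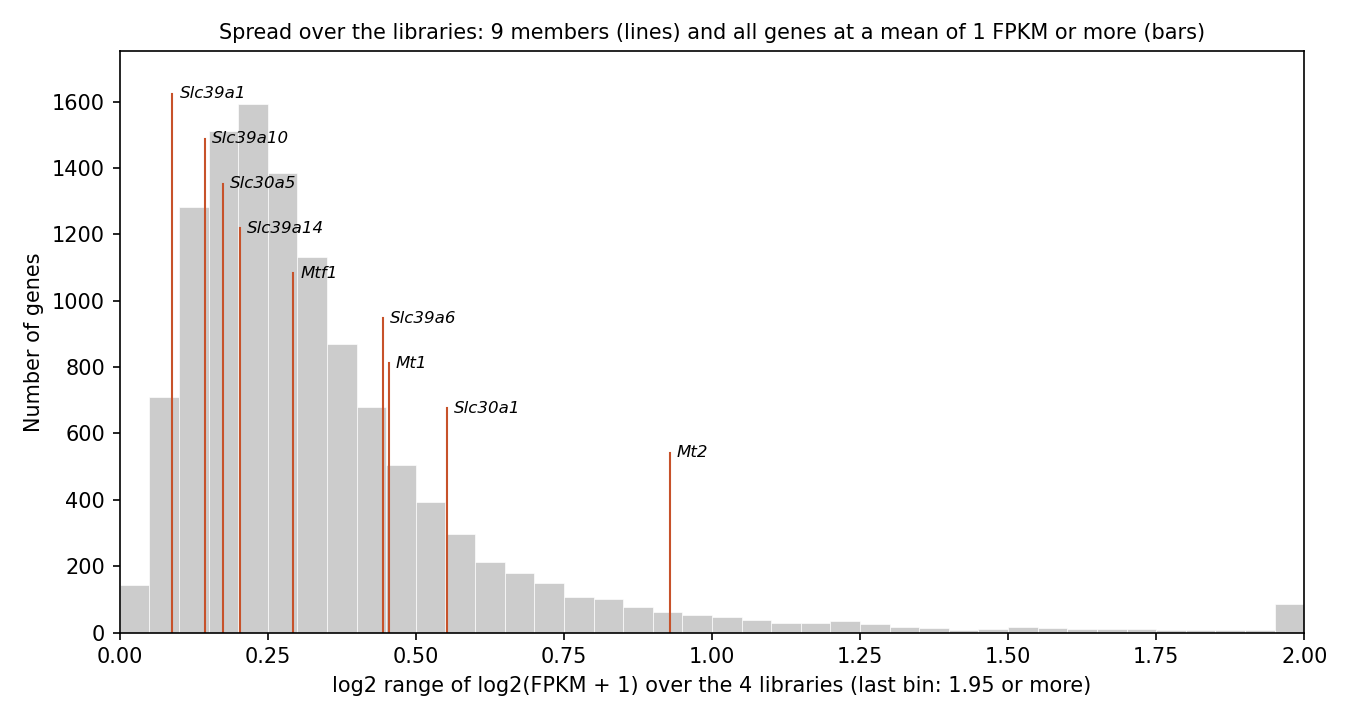
Log2 range over the 4 libraries for 9 genes (orange lines, whose heights only space the names) over the number of genes in bins of that range (grey bars, 11874 expressed genes). Mt2 lies in the right tail at 0.93, Slc30a1 at 0.55, and Slc39a1 at 0.09 near the left edge.

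Among the metal-binding proteins, Mt2 (ENSMUSG00000031762) encodes one of the pair of metallothioneins made in most tissues. It had 2059, 2405, 1197 and 1345 counts in libraries 01, 02, 21 and 22, which equal 284, 314, 164 and 178 FPKM. Libraries 01 and 02 were high and libraries 21 and 22 low. Its highest library, 02, with an interval of 301 to 326 FPKM, exceeded its lowest, 21, with an interval of 155 to 174 FPKM, by 1.91-fold. This was the widest log2 range of the 9 genes, 0.93, which 4.26% of expressed genes reached. In library 02 it was the gene with the 127th highest FPKM of the table, and in library 21 the 264th. Macrophage or leukocyte markers, of which 5 of 8 were detected in every library, summed to 278, 281, 147 and 146 FPKM, most of it from Adgre1. Of those 5, Adgre1 and Cd68 were higher in libraries 01 and 02. Cd14 was too, at 61, 58, 42 and 44 counts, but the intervals of its lowest and highest library overlapped. Ptprc and Fcgr3 were not higher there, at 10.2, 11.2, 10.4 and 11.3 FPKM and at 20.7, 20.7, 24.0 and 21.7 FPKM. Itgam had 0, 0, 1 and 0 counts and Csf1r 11, 6, 7 and 6 counts. The mast cell list summed to 565, 555, 462 and 482 FPKM and the fibroblast or feeder list to 544, 562, 501 and 511 FPKM. The germ cell list, nearly all Ifitm3 and Kit, summed to 333, 335, 379 and 374 FPKM. In the mast cell list, Cpa3 and Gata2 were higher in libraries 01 and 02. Kit, which is in both the mast cell and germ cell lists, ran the other way, at 58.9, 64.6, 101 and 100 FPKM. Ifitm3 was level, at 273, 269, 278 and 272 FPKM. The part of these markers in the spread of Mt2 or of any other gene here was not tested.

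Mt1 (ENSMUSG00000031765) encodes the other widely made metallothionein. It had 2410, 2270, 1893 and 1827 counts, or 157, 139.7, 123 and 114 FPKM, in the order 01, 02, 21 and 22. Library 01 was highest, with an interval of 151 to 163 FPKM, and library 22 lowest, with an interval of 109 to 119 FPKM. The ratio of highest to lowest was 1.37-fold and the log2 range 0.45, under that of Mt2. Together the pair took 362, 359, 249 and 247 CPM (counts scaled to the library total) in libraries 01, 02, 21 and 22, with Wilson 95% intervals of 352 to 373, 348 to 369, 241 to 258 and 238 to 256. The intervals of libraries 01 and 02 overlapped, as did those of libraries 21 and 22, and all other pairs were apart.

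The split between the pair also differed, and this measure does not depend on the scaling of a library. Mt2 made up 46.1% of the Mt1 plus Mt2 counts in library 01, 51.4% in library 02, 38.7% in library 21 and 42.4% in library 22. The Wilson 95% intervals were 44.6% to 47.5%, 50.01% to 52.9%, 37.0% to 40.5% and 40.7% to 44.1%, and no 2 of them overlapped. Libraries 01 and 02, close in summed counts of the pair, were thus apart in its split. The Wilson intervals of the sum and of this and the later splits cover counting error only. How often other pairs of genes have intervals apart was not computed. Of single genes with like counts, 68.6% had intervals of the lowest and highest library apart.

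Which metallothionein stood higher per length depended on the length used. The deposited exonic size of Mt1, 1246 bases, equals its whole span from start to end, introns included, because the GENCODE M21 transcripts of Mt1 together cover its introns. The deposited size of Mt2 is 588 bases. On those sizes Mt2 exceeded Mt1 in all 4 libraries. On the lengths of the first-listed GENCODE M21 transcript of each gene, 549 bases for Mt1 and 511 bases for Mt2, a choice made after seeing the sizes, Mt1 came to 356, 317, 278 and 259 FPKM and Mt2 to 327, 361, 189 and 205 FPKM. Mt2 was then above Mt1 in library 02 alone, and Mt1 was above Slc39a6 (100.1 to 136 FPKM) in each library. The ratio between libraries for each gene is untouched by its length, whereas the log2 range can shift through the added 1 FPKM.

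Mt3 (ENSMUSG00000031760), a metallothionein gene best known from brain, was without a count in all 4 libraries. Its exact Poisson 95% intervals ended at 0.280, 0.265, 0.279 and 0.269 FPKM in libraries 01, 02, 21 and 22. The floor of 3 counts equals 0.228, 0.216, 0.227 and 0.219 FPKM of Mt3 in the same order. Mt4, a metallothionein gene known from stratified epithelium and named here after its values were seen, had 1, 2, 10 and 2 counts, or 0.20, 0.39, 2.03 and 0.39 FPKM. The exact Poisson 95% interval of library 21, 0.973 to 3.73 FPKM, overlapped those of the others, the highest of which ended at 1.41 FPKM. In the deposited coordinates, whose build is not given in the sources used here, Mt3 (chromosome 8, 94879235 to 94880774), Mt2 (94899292 to 94900196) and Mt1 (94905710 to 94906955) lie in that order on the plus strand, with 18517 bases between the first pair and 5513 between Mt2 and Mt1. Neighbouring genes of 1 cluster thus ran from no count to rank 127 in the table.

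Mtf1 (ENSMUSG00000028890, chromosome 4), the gene of the zinc-sensing factor, was the lowest of the 9 detected genes. It had 404, 471, 349 and 358 counts, or 3.68, 4.06, 3.16 and 3.13 FPKM, in libraries 01, 02, 21 and 22. Library 02, with an interval of 3.70 to 4.44 FPKM, lay above library 22, with an interval of 2.81 to 3.47 FPKM, a ratio of 1.30-fold and a log2 range of 0.29, which 45.8% of expressed genes reached.

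Of the exporters, Slc30a1 (ENSMUSG00000037434, chromosome 1) encodes ZnT1, which moves zinc out across the plasma membrane. It had 717, 673, 500 and 488 counts, or 11.1, 9.84, 7.70 and 7.24 FPKM, in libraries 01, 02, 21 and 22. As with the metallothioneins, libraries 01 and 02 were high and 21 and 22 low. The highest, 01, with an interval of 10.3 to 11.9 FPKM, was 1.53-fold the lowest, 22, with an interval of 6.61 to 7.91 FPKM, and 13.9% of expressed genes reached its log2 range of 0.55.

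Slc30a5 (ENSMUSG00000021629, chromosome 13) encodes ZnT5, which fills the early secretory pathway with zinc as a partner of ZnT6. It had 982, 1106, 1070 and 1166 counts, or 10.9, 11.6, 11.8 and 12.4 FPKM. Here library 01 was the lowest, with an interval of 10.2 to 11.6 FPKM, and library 22 the highest, with an interval of 11.7 to 13.2 FPKM, a ratio of 1.14-fold. Its log2 range of 0.17 was reached by 75.9% of expressed genes, and its 99% intervals overlapped. Set against each other within a library, Slc30a1 took 42.2%, 37.8%, 31.8% and 29.5% of the Slc30a1 plus Slc30a5 counts in libraries 01, 02, 21 and 22. The Wilson 95% intervals were 39.9% to 44.6%, 35.6% to 40.1%, 29.6% to 34.2% and 27.4% to 31.7%. Those of libraries 01 and 02 overlapped, those of libraries 21 and 22 overlapped, and all other pairs were apart.

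Slc39a6 (ENSMUSG00000024270, chromosome 18), the gene of the importer ZIP6, was the most abundant zinc transporter gene of these libraries. Its counts were 5029, 5386, 6887 and 6999, or 100.1, 101, 136 and 134 FPKM, in libraries 01, 02, 21 and 22. Libraries 21 and 22 were high and libraries 01 and 02 low, the reverse of Mt2. Library 21, with an interval of 133 to 139.8 FPKM, was 1.36-fold library 01, with an interval of 97.3 to 103 FPKM, and 22.2% of expressed genes reached its log2 range of 0.44.

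Slc39a10 (ENSMUSG00000025986, chromosome 1) encodes ZIP10, a close relative of ZIP6 with which it forms a heteromer. It had 1031, 1030, 957 and 964 counts, or 13.7, 12.96, 12.7 and 12.3 FPKM. Library 01, with an interval of 12.9 to 14.6 FPKM, was 1.11-fold library 22, with an interval of 11.5 to 13.1 FPKM. These intervals overlapped, which does not show that the values were equal. The counts of the 2 genes of the heteromer did not keep one proportion. Slc39a6 took 83.0% and 83.9% of their summed counts in libraries 01 and 02 and 87.8% and 87.9% in libraries 21 and 22. The Wilson 95% intervals ran from 82.02% to 83.9% and 83.03% to 84.8% in libraries 01 and 02, and from 87.1% to 88.5% and 87.2% to 88.6% in libraries 21 and 22.

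**Figure D4:**
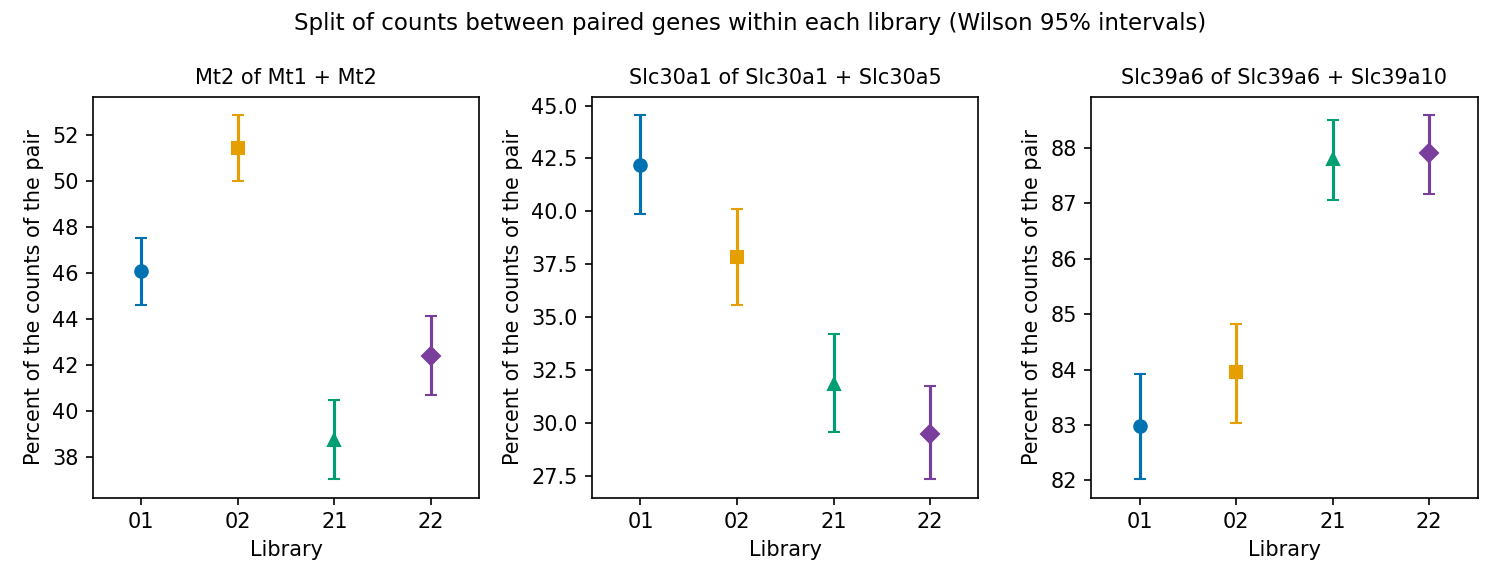
Percent of the summed counts of a pair of genes taken by the first of them in each library, with Wilson 95% intervals as bars. The vertical axes differ and do not start at 0. Mt2 ranges from 38.7% to 51.4% of its pair, Slc30a1 from 29.5% to 42.2%, and Slc39a6 from 83.0% to 87.9%.

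Slc39a1 (ENSMUSG00000052310, chromosome 3) encodes ZIP1, a widely expressed importer of the cell surface, and was the steadiest gene of the group. It had 1179, 1225, 1172 and 1286 counts, or 40.4, 39.7, 40.0 and 42.3 FPKM, in libraries 01, 02, 21 and 22. The intervals of library 02 (37.5 to 42.03 FPKM) and library 22 (40.1 to 44.7 FPKM) overlapped. Its log2 range was 0.09, and 94.6% of expressed genes varied at least as much.

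Slc39a14 (ENSMUSG00000022094, chromosome 14) encodes ZIP14, which carries zinc, manganese and iron not bound to transferrin and is induced by interleukin-6 in liver. Its counts were 1523, 1715, 1472 and 1451, or 11.7, 12.5, 11.3 and 10.7 FPKM. Library 02, with an interval of 11.9 to 13.1 FPKM, was 1.17-fold library 22, with an interval of 10.2 to 11.3 FPKM. Of expressed genes, 68.3% reached its log2 range of 0.20.

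Taking the transporter families whole, 11 of 14 ZIP genes and 7 of 10 ZnT genes were detected in every library. ZIP genes summed to 244, 245, 281 and 276 FPKM in libraries 01, 02, 21 and 22, of which Slc39a6 made up 41.1%, 41.4%, 48.5% and 48.5%. ZnT genes summed to 57.0, 59.3, 55.7 and 58.2 FPKM, spread more evenly, with Slc30a9, a transporter of mitochondria, highest in each library at 22.9%, 21.6%, 23.4% and 22.8% of the sum. Of the 9 other exporter genes looked up (8 further ZnT genes and Tmem163), 5 were detected in every library, 4 were under 1 FPKM in every library and none of the 5 had intervals apart, against 56.7% of expressed genes. Slc30a9 was at 13.04, 12.8, 13.05 and 13.3 FPKM and Slc30a6, the gene of the ZnT5 partner, at 7.41, 8.85, 8.35 and 8.73 FPKM. Slc30a4 was at 6.64, 7.11, 6.41 and 7.57 FPKM, and Slc30a2, a gene of vesicle filling in mammary gland, varied most of these (log2 range 0.25), at 3.46, 4.24, 3.94 and 4.30 FPKM. Slc30a3, Slc30a8 and Slc30a10, known from neurons, pancreatic islets and liver, had no count.

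Among 10 further ZIP genes, 7 were detected throughout, with a median log2 range of 0.15, and 3 of these 7 (Slc39a3, Slc39a4 and Slc39a11) had intervals apart, against 56.7% of expressed genes. Slc39a7, which releases zinc from the endoplasmic reticulum, was at 23.4, 25.9, 25.3 and 23.7 FPKM. Slc39a4, the importer of the gut, was at 20.7, 21.0, 24.1 and 23.1 FPKM, highest in libraries 21 and 22 as Slc39a6 was. Slc39a11 was at 14.5, 12.1, 13.7 and 11.9 FPKM, and Slc39a3 varied most (log2 range 0.51), at 2.58, 3.15, 1.91 and 2.65 FPKM. The spread of Slc39a6 was thus wider than that of 6 of these 7 genes and narrower than that of Slc39a3.

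**Figure D5:**
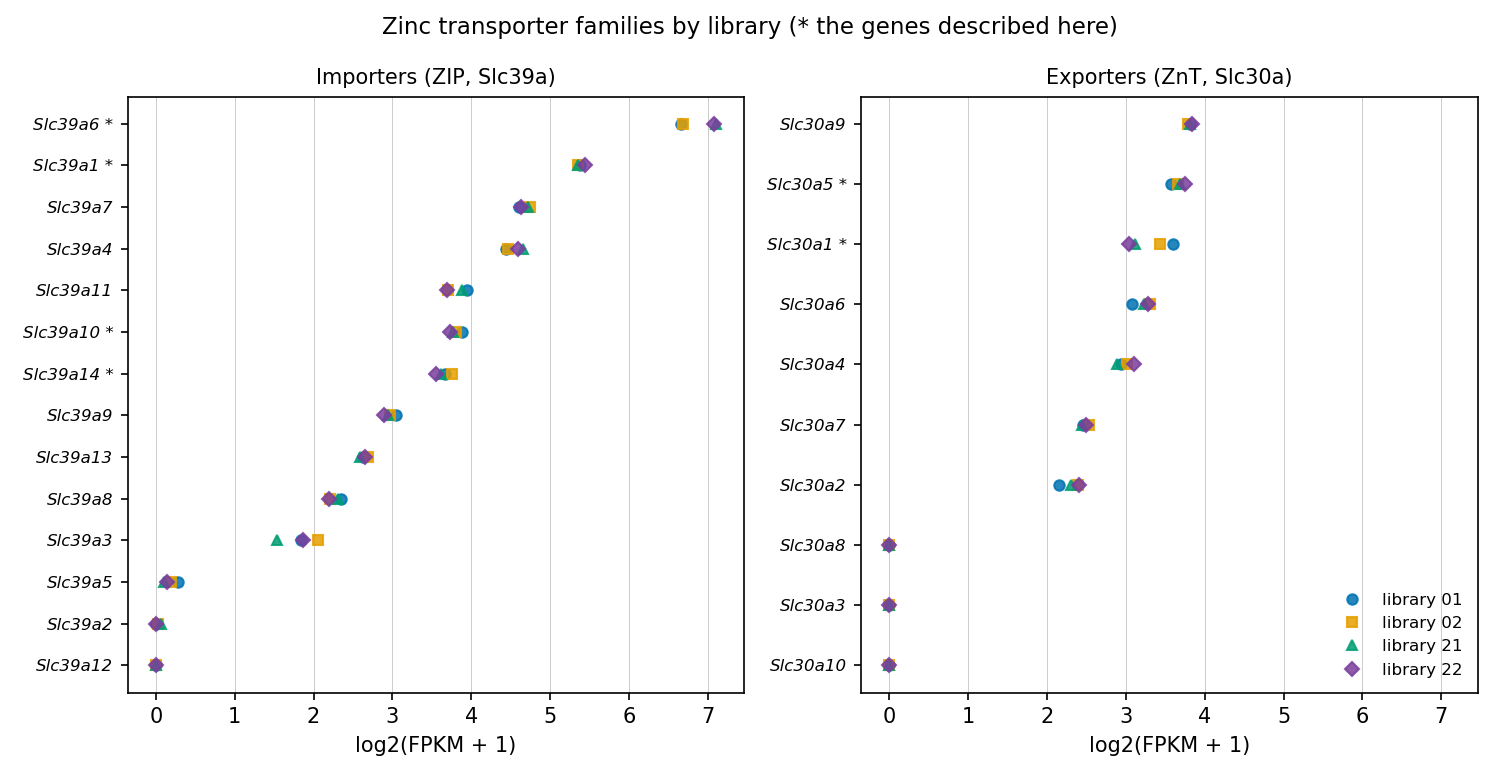
Levels as log2(FPKM + 1) of 14 ZIP genes (left) and 10 ZnT genes (right), 1 symbol for each library, ordered by median. Slc39a6 stands highest and is lower in libraries 01 and 02 than in libraries 21 and 22, Slc30a1 runs the other way, and 3 ZnT genes lie at 0.

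Other genes of metal handling and of known metallothionein inducers were read from lists. Of 10 targets and partners of MTF1, 8 were expressed, 2 of them with a log2 range of 0.5 or more, against 17.3% of expressed genes. Gclm, the modifier subunit gene of glutathione synthesis, was at 47.1, 44.9, 22.3 and 21.9 FPKM, with libraries 01 and 02 high and a log2 range of 1.07. Selenoh, a selenoprotein gene that MTF1 controls in mouse, was at 76.3, 73.0, 70.1 and 70.6 FPKM, and Hif1a at 32.7, 30.9, 35.1 and 36.6 FPKM. Of 13 genes for copper and other divalent metals, 12 were detected in every library and 1 of these had a range of 0.5 or more, against the same 17.3%. That was Slc11a1, a metal pump of phagosomes, at 2.73, 2.07, 1.00 and 1.03 FPKM. The copper chaperone gene Atox1 was at 84.3, 78.1, 92.1 and 99.5 FPKM, Sod1, the copper and zinc superoxide dismutase gene, at 45.8, 45.2, 45.7 and 51.9 FPKM, and the copper importer gene Slc31a1 at 23.4, 22.3, 22.9 and 20.9 FPKM.

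Glucocorticoids induce metallothioneins, and of 7 genes of that response 6 were expressed, 3 of them with a range of 0.5 or more, against 17.3% of expressed genes. They did not share one order. Sgk1 was at 13.8, 12.5, 3.98 and 5.63 FPKM, with libraries 01 and 02 high as for Mt2, whereas Tsc22d3 was at 19.8, 19.8, 34.6 and 33.9 FPKM, with libraries 21 and 22 high. Fkbp5 was at 18.4, 19.0, 19.2 and 18.6 FPKM and the receptor gene Nr3c1 at 22.1, 24.3, 29.2 and 29.04 FPKM. Of 6 genes around interleukin-6 and STAT3, which induce Slc39a14 and metallothioneins in liver, all were detected in every library and 2 had a range of 0.5 or more, against 17.3% of expressed genes. Socs3 was at 14.6, 13.2, 12.6 and 13.1 FPKM, Stat3 at 9.89, 10.6, 12.6 and 13.2 FPKM, Il6 at 11.5, 11.4, 8.28 and 9.29 FPKM, and Bcl3 (log2 range 0.59) at 3.01, 1.67, 2.90 and 2.61 FPKM.

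Likeness of pattern was measured as the largest difference, over the 4 libraries, between the log2(FPKM + 1) of 2 genes after the mean of each was taken away, so a small value means a like pattern. Among 7722 other genes whose mean reached 5 FPKM, those nearest to Mt2 were Gm9824, Bcl2, Col6a3, Ulbp1 and Hsp90aa1, with differences of 0.05, 0.05, 0.06, 0.06 and 0.07. Bcl2 was at 29.9, 32.8, 16.4 and 17.2 FPKM. Nearest to Mt1 were Pold4, Mfsd5, 2410006H16Rik, Rhod and Slc16a3, with differences of 0.02 for the first and second and 0.03 for the others. Pold4 was at 73.5, 64.6, 55.9 and 52.7 FPKM. Mt1 itself ranked 1283 among the genes nearest to Mt2, and Mt2 ranked 6548 among those nearest to Mt1, at a difference of 0.39 in both. With 4 libraries, many genes come close by this measure.

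Shared sequence limits a few of these values. Of the 100-base stretches of Mt2 transcripts in GENCODE M21, 22.4% also lie in Gm45774, an antisense gene that had 58, 61, 36 and 21 counts. For Slc39a1, 14.8% lie in its pseudogene Slc39a1-ps, for Slc30a1 7.06% in 1700034H15Rik and for Mtf1 6.99% in 1110065P20Rik, both on the opposite strand. Whether counting used strand is not given in the sources used here, so reads of these stretches could not be told apart. Slc39a6 also overlaps Elp2 on the opposite strand, which had 3059, 3244, 3274 and 3407 counts, and Slc39a10 overlaps Gm28151 on its own strand, which had 8 to 11 counts. Mt1, Mt3, Slc30a5, Slc39a6, Slc39a10 and Slc39a14 shared no such stretch.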

How the data were processed

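Poly(A) RNA of 4 libraries was sequenced with paired reads, per the labels' protocols. The deposited count columns hold whole-number counts per gene, not normalised by the authors, judged from the values. The deposited FPKM comes from the authors and is so named per the file headers, and for genes at 10 FPKM or more in every library it returned the summed count of the library from count and exonic size within 0.0492%. FastQC, HISAT2 and DESeq2 stand in the submitters' processing notes without version or role, whereas build, annotation and counter stay not given in the sources used here. Among 52083 genes shared with GENCODE M21, 98.7% had its exonic size, as did all 10 members.

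No library was assigned to a group and no test between libraries was run, apart from Dixon's criterion for a library that stands apart. Counts carry exact Poisson and shares Wilson 95% intervals, and the floor is 3 counts per library. Ranges use log2(FPKM + 1), a scale that understates the change of low genes, over genes whose mean reached 1 FPKM. Calculations ran in Python 3.11.15 with scipy 1.17.1, and alternative scalings came from edgeR 4.0.16 and DESeq2 1.42.0 in R 4.3.3. The range and interval code was tested on simulated counts. Members and lists were chosen with earlier results of these data known. Named genes are all members, up to 3 genes with the highest median and the gene with the widest range of each list, and the 5 genes nearest to Mt2 and to Mt1. Mt4, the ZnT genes without a count, the ZIP genes with intervals apart and genes that share sequence or overlap with a member were named beside this rule, after their values were seen. The genes of the marker lists and a list of brain, liver and kidney markers, none of whose 5 genes reached 1 FPKM, only describe the cells.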

Additional observations from a re-analysis of the deposited data

Results flagged for a closer look

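Over the 4 libraries, which are not replicates of a known group, a gene was listed here where 1 library stood apart from the nearest other by more than Dixon's 95% critical share of the whole range. For independent values from one normal distribution, chance alone would list about 1 in 20. That share need not hold for the 33 genes examined. Some pairs of libraries were closer than others, and some of the genes were picked for their wide range. Mt4 was put among the 33 after its values were seen, so that share does not apply to it. None of the 9 detected members was listed, and Mt3, without a count, could not be. Mt4 was at 2.03 FPKM in library 21, from 10 counts, and at 0.39 FPKM or less in the other libraries. Sod1 was at 51.9 FPKM in library 22 and at 45.2 to 45.8 FPKM in the others.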

How the results depend on the processing

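Rescaling FPKM to a common sum, median-of-ratios size factors and TMM factors moved the median of all genes by at most 0.02 on the log2 scale, and under these and a pseudocount of 0.1 FPKM none of the 36 recomputed log2 ranges of single members moved beyond its counting interval. The count of members with a log2 range of 0.5 or more, 2, became 4 at a range of 0.3 and 0 at a range of 1, and lay between 1 and 2 when single libraries were left out, with 1 without library 01 and 1 without library 22. Leaving out a library, by which a range can only stay or shrink, moved 4 of 36 ranges beyond the counting interval. Mt1 was at 0.29 to 0.35 and Mt2 at 0.78 to 0.81 there. The number of libraries with Mt2 above Mt1 per length, 4, became 1 on the lengths of the first-listed transcripts, a choice made after seeing the data. Over all alternatives run, 8 or 9 members were detected, 5 to 7 had intervals apart, and their median range was 0.25 to 0.37, except without library 02, where it was 0.18. No paired analysis was possible because the labels give no groups. Depth limits Mt3 and Mt4, which lie at or near the floor of 3 counts.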

Other observations

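The differences between pairs of libraries were not alike. Over the 9 detected members, the median absolute difference in log2(FPKM + 1) was 0.08 between libraries 02 and 01 and 0.07 between libraries 22 and 21, beside 0.09 and 0.08 over the 11874 genes whose mean reached 1 FPKM. It was 0.17 between libraries 21 and 01, 0.18 between 22 and 01, 0.19 between 21 and 02 and 0.29 between 22 and 02, beside 0.16, 0.17, 0.17 and 0.17 over all such genes. Mt2 differed most of the members in these 4 pairs, by 0.67 to 0.93. Between libraries 02 and 01 the largest difference was that of Mt1, 0.16. These values describe single libraries, and the labels do not say whether a pair shares a condition.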
